A study of Homo sapiens with 6 samples.

Results

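The large (60S) subunit of the ribosome is assembled by proteins that do not stay in the finished particle, and 48 genes for such assembly factors were followed here. They were chosen by name from the known path of large-subunit assembly, with earlier results of these data known. All 48 were found among the 60664 genes of each file and passed the filter on low counts. Assembly starts in the nucleolus, where factors fold, cut and modify the ribosomal RNA precursor and add ribosomal proteins. The particle then moves into the nucleoplasm, where ATPases and GTPases strip factors off and proofread it, and it is exported to the cytoplasm, where the last factors leave. In tumour cells with high MYC activity many of these genes are MYC targets. By the place of their step, 35 of the factors were taken as nucleolar, 8 as nuclear and 5 as cytoplasmic. The cytoplasmic set holds factors that act in export or are released only after it.

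The measurements come from RNA-seq of D283 Med, an established Group 3 medulloblastoma cell line in which MYC is amplified. In 3 libraries (controls, genotype SCR) the cells had been transfected with a scrambled LNA GapmeR, and in 3 (genotype KD) with a GapmeR meant to lower lncMB3, a long non-coding RNA. LNA GapmeRs are antisense oligonucleotides that recruit RNase H to their target, and both groups went through the same transfection. No source used here ties lncMB3 to a gene identifier, so its level was not analysed here, groups are those of the labels, and effects of losing lncMB3 cannot be told apart from other effects of its GapmeR. The labels do not say how many GapmeR sequences were used or whether replicates were separate cultures, so p-values measure only how far these libraries spread, which may be technical.

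Library totals ran from 7765826 counts (knockdown library 1) to 20035834 (control 2). Each assembly factor had between 251 and 16484 counts in a library, so none was near the detection floor. Of the 8 Group 3 markers, all were measured, among them OTX2 at 826 to 922 CPM (counts per 1000000 counts of a TMM-scaled library total) in the controls and 723 to 742 CPM in the knockdown libraries, and MYC at 1103 to 1278 and 1118 to 1259 CPM. Of 8 immune and endothelial markers 3 passed the filter and each of these was below 3 CPM in every library. CD3E and CDH5 were at 0 in all 6 libraries. The 5 fibroblast markers summed to 19.8 to 22.7 CPM in controls and 14.4 to 18.2 CPM in knockdown libraries, with COL3A1 at 0 and with COL1A1 and DCN called lower, and the 3 epithelial markers summed to 0.0521 to 0.351 CPM over the 6 libraries. The glial marker MBP was at 0 throughout. The 8 Group 3 markers summed to 2856 to 3097 and 2703 to 2787 CPM, and 5 of them fell and 1 rose. The part of these differences in the results on assembly factors was not tested.

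Genes for 60S assembly factors were higher in the knockdown libraries almost throughout the list. Of the 48, 43 rose, 1 fell (NOP53) and 4 did not pass the test (URB1, NVL, MDN1 and RSL24D1), by edgeR's quasi-likelihood test at a Benjamini-Hochberg adjusted p under 0.05. Over all 14673 genes tested, 15.9% rose and 15.9% fell (31.7% in either direction). The 48 genes were chosen with earlier results of these data known, so their excess over these shares is a description, not a test. The median log2 change was 0.51 over the 48 genes, against 0.00 over all genes tested, and its lower and upper quartiles were 0.36 and 0.65. A log2 change is that of knockdown over control, with its SE after ± where one is printed. Of the 48, NOP16 and NOP2 rose at least 2-fold, as did 128 of all 14673 genes tested. In 43 genes every knockdown library was above every control, which held for 22.9% of all genes tested, and in NOP53 every knockdown library was below every control, which held for 23.1%. The split of calls over all genes, 2328 higher and 2329 lower, became 1773 higher and 2803 lower with upper-quartile scaling, under which 39 of the 48 factors still rose. CPM are shares of a library, and in RNA from bulk cells fewer cells making a transcript and less of it per cell cannot be told apart.

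Together the 48 genes took 0.552%, 0.495% and 0.486% of the counts of controls 1 to 3, against 0.661%, 0.673% and 0.670% of those of knockdown libraries 1 to 3. Control 1 was the highest control for 44 of the 48 genes, control 2 for 2 (NOP53 and RSL24D1) and control 3 for 2 (DDX51 and MDN1). Control 1 therefore lay between the other controls and the knockdown libraries for most of the list, as the map of the 48 genes by library shows. Without control 1 the median log2 change was 0.60 and 44 genes rose. Without control 2 or without control 3 it was 0.47 or 0.48, and 37 genes rose in either case.

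**Figure D1:**
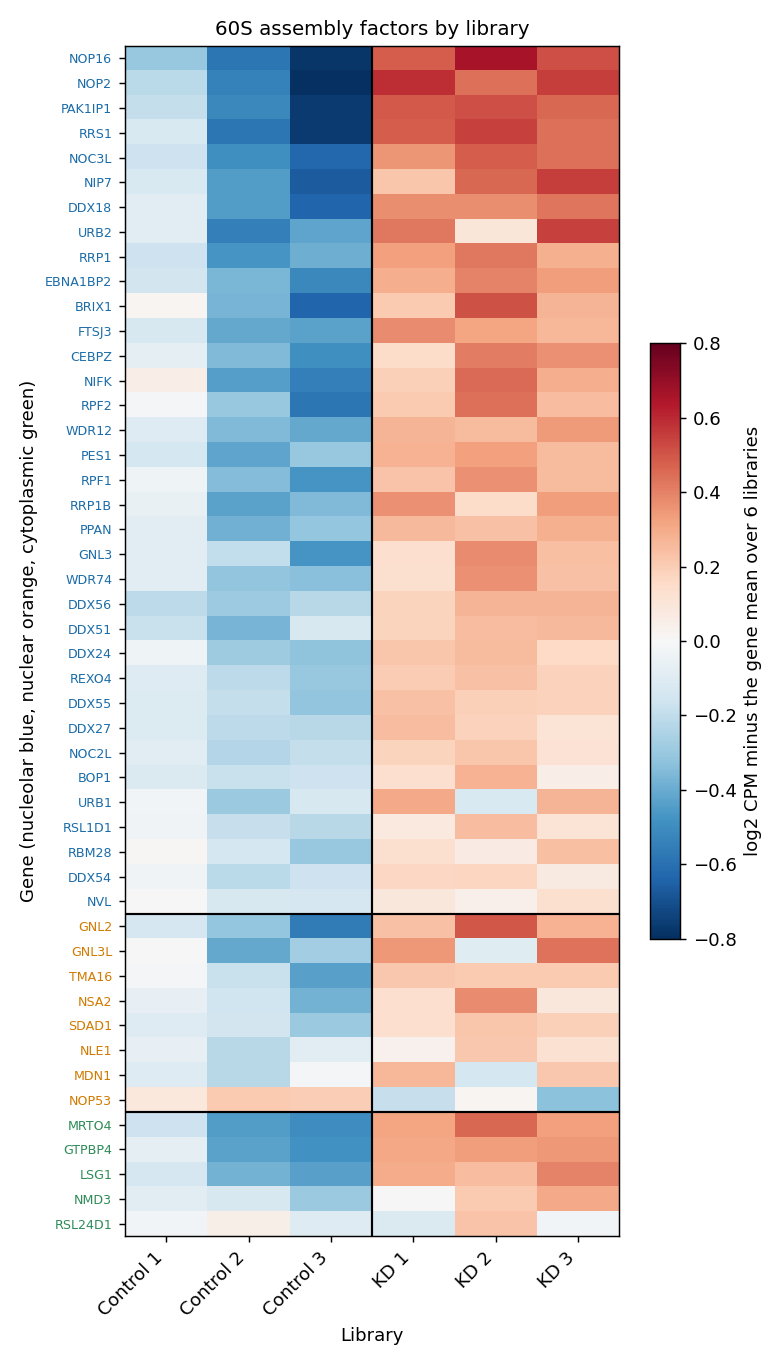
Each row is 1 of the 48 assembly factor genes, grouped by step and ordered by log2 change, and each column is 1 library. Colour is log2 CPM minus the gene's mean over the 6 libraries (red above it, blue below); control 1 is the palest blue control in most rows, and NOP53 is the 1 row that is red in all controls.

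Promoters of the list were searched for the best known binding letters of MYC. MYC binds DNA as a dimer with MAX at the E-box, whose core letters CACGTG read the same on both strands. RefSeq promoters (GRCh38.p14, 250 bases before to 50 after a start) were matched for 41 of the 48 genes, and 13 of them (31.7%) held CACGTG in at least 1 promoter, against 12.6% of the 10840 tested genes with a promoter and 7.26% of the 35116 promoters of that length in the table. From 50 bases before the start onwards it stood in 11 of the 41 (26.8%), against 5.21% of the same tested genes. These shares were not tested, and a match is not shown to be a bound site. The windows of 30 bases below show the motif, in capitals, in the 4 nucleolar factors with the motif whose log2 change was largest, and in the nuclear and the cytoplasmic factor with the motif whose log2 change was largest.
NOP2: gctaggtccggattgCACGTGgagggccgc
PAK1IP1: tggcggaagaggCACGTGcgctgctgaatg
NOC3L: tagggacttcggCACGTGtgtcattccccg
EBNA1BP2: tggcgctggagcgattcggtggCACGTGga
GNL2: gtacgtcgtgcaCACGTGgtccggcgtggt
MRTO4: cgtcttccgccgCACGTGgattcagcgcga

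Counted from 1 at the first transcribed base, with negative numbers before it, the first base of the motif lay at 36 in NOP2 (chr12:6568242-6568271, minus strand), -1 in PAK1IP1 (chr6:10694959-10694988, plus strand), 20 in NOC3L (chr10:94362903-94362932, minus strand) and 43 in EBNA1BP2 (chr1:43172241-43172270, minus strand). It lay at 4 in GNL2 (chr1:37595917-37595946, minus strand) and 15 in MRTO4 (chr1:19251807-19251836, plus strand). EBNA1BP2 has another match at -237 of another annotated start, and MDN1 has matches at 28 and -155. The other genes with the motif were PES1, GNL3, DDX54, SDAD1, TMA16, MDN1 and NLE1. The 13 genes with the motif had a median log2 change of 0.57 (0.23 to 1.04) and 12 of them rose. The 28 without it had a median of 0.47 (-0.32 to 1.10) and 24 of them rose. Over the 1361 tested genes with the motif the median was 0.05, and 21.8% rose. MYC itself, with a log2 change of 0.03 (adjusted p = 0.826), did not pass the test.

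The PeBoW complex of PES1, BOP1 and WDR12, which is needed for processing of the spacer between the large-subunit RNAs in the precursor, rose in all its members. PES1 (GRCh38 chromosome 22, 30576625 to 30607083) stood at 198, 163 and 177 CPM for controls 1 to 3, against 265, 274 and 260.4 CPM for knockdown libraries 1 to 3. Its groups did not overlap, and the mean went from 179 ± 17.7 to 266 ± 6.97 CPM (SD, n = 3 each; log2 change 0.57 ± 0.09, adjusted p = 0.000452). WDR12, a WD-repeat subunit, stood at 67.8, 57.1 and 54.9 CPM for controls 1 to 3, against 88.1, 87.01 and 92.5 CPM for knockdown libraries 1 to 3, a 1.49-fold rise (log2 change 0.57 ± 0.09, adjusted p = 0.000595). BOP1, which bridges the others, stood at 205, 196 and 198 CPM for controls 1 to 3, against 244, 269 and 230.1 CPM for knockdown libraries 1 to 3, with controls within a few CPM of each other and all knockdown libraries above them (log2 change 0.31 ± 0.08, adjusted p = 0.0123). BOP1 rose least of the complex, 1.24-fold against 1.49-fold for PES1, and its call was lost without control 2 (adjusted p = 0.0681). The ratio of PES1 to BOP1 CPM was 0.966, 0.830 and 0.892 for controls 1 to 3, against 1.09, 1.02 and 1.13 for knockdown libraries 1 to 3, without overlap, but this difference was not tested.

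The largest rises were in nucleolar proteins of the earliest particles and in an RNA-modifying enzyme. NOP16 (chromosome 5, 176383938 to 176388975), a nucleolar protein of early 60S particles, stood at 39.5, 32.6 and 28.3 CPM for controls 1 to 3, against 68.0, 76.9 and 69.4 CPM for knockdown libraries 1 to 3. The lowest knockdown library was 1.72 times the highest control (log2 change 1.10 ± 0.11, adjusted p = 3.57e-05). NOP2 (chromosome 12, 6556863 to 6568691), which methylates cytosines in large-subunit RNA, stood at 72.1, 57.6 and 47.1 CPM for controls 1 to 3, against 126, 114 and 123 CPM for knockdown libraries 1 to 3, again far apart (log2 change 1.04 ± 0.12, adjusted p = 9.01e-05). A further annotated gene on the same strand, AC006064.6, covers 54.4% of the NOP2 exon bases with a mean of 22.7 CPM, so the level of NOP2 is uncertain where reads were shared. FTSJ3, which methylates ribose in ribosomal RNA precursors, rose 1.56-fold from 165 ± 19.7 to 256 ± 10.2 CPM (adjusted p = 0.000337). On the other strand, exons of PSMC5 cover 16.8% of the FTSJ3 exon bases, and ARL10 and HIGD2A cover 12.02% and 7.93% of those of NOP16. Since the strand setting of the counting is not stated, reads of such pairs may not have been separated. ARL10 and HIGD2A had log2 changes of -0.17 and -0.02, and neither passed the test (adjusted p = 0.271 and 0.895), whereas PSMC5 rose with a log2 change of 0.36 (adjusted p = 0.00494).

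Of the 12 early scaffold factors, counting NOP16, 11 rose. PAK1IP1, a WD-repeat factor that is also known as a regulator of the kinase PAK1, went from 24.3 ± 4.90 to 47.4 ± 0.858 CPM (1.95-fold, adjusted p = 0.000128), and NIP7, which binds precursor RNA, from 21.4 ± 4.11 to 37.5 ± 4.38 CPM (1.77-fold, adjusted p = 0.000486). Exons of COG8 on the other strand cover 20.2% of the NIP7 exon bases, at a mean of 28.7 CPM against 29.2 CPM for NIP7, and COG8 rose as well (log2 change 0.33, adjusted p = 0.0203), so the level of NIP7 is uncertain where reads were not separated by strand. EBNA1BP2, a scaffold protein, NIFK, a partner of the proliferation protein Ki-67, and REXO4, a putative exonuclease, rose 1.60-fold, 1.52-fold and 1.33-fold (adjusted p = 0.000250, 0.00353 and 0.00261). The smallest rises among these 11 were in RBM28, an RNA-binding factor, and RSL1D1, a protein with a ribosomal L1 fold, with log2 changes of 0.29 and 0.29 (adjusted p = 0.0394 and 0.0232). Both calls were lost without control 2 (adjusted p = 0.120 and 0.112), control 3 (0.173 and 0.0961) or knockdown library 3 (0.170 and 0.0579), that of RBM28 also without knockdown library 1 (0.0771) and by DESeq2 (0.0615), and both with upper-quartile scaling (0.0835 and 0.0559). Per kilobase of annotated mRNA, RSL1D1 was at 119.9 CPM per kilobase in the controls, second in the list to NOP53 at 182. The median of the 48 genes in the controls was 26.6 CPM per kilobase.

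RRP1 and RRP1B are paralogs whose proteins sit in nucleolar pre-60S particles. RRP1 stood at 63.8, 51.6 and 54.5 CPM for controls 1 to 3, against 90.01, 95.7 and 87.1 CPM for knockdown libraries 1 to 3 (log2 change 0.68 ± 0.09, adjusted p = 0.000220). RRP1B stood at 157, 122 and 128 CPM for controls 1 to 3, against 211, 181 and 207 CPM for knockdown libraries 1 to 3 (log2 change 0.56 ± 0.10, adjusted p = 0.00134). Neither gene's groups overlapped, and knockdown library 2 was the highest of its group for RRP1 and the lowest for RRP1B. RSEM divides reads that match several transcripts by estimation, so the level of either paralog may hold some reads of the other. URB2, a large nucleolar factor, rose 1.63-fold (adjusted p = 0.00118). URB1, another large nucleolar factor, stood at 93.3, 76.9 and 86.6 CPM for controls 1 to 3, against 117, 86.9 and 114 CPM for knockdown libraries 1 to 3, where knockdown library 2 lay among the controls (log2 change 0.30 ± 0.11, adjusted p = 0.0526). URB1 passed the test without knockdown library 2 (adjusted p = 0.00565) or control 1 (0.0356), by DESeq2 (0.0422), with no filter on low counts (0.0199), with a replicate block (0.0187) and with a correction for mRNA length (0.00233).

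Proteins that share the Brix RNA-binding fold all rose, by similar amounts. BRIX1, RPF1, PPAN and RPF2 had log2 changes of 0.65, 0.56, 0.52 and 0.59. PPAN, which had the smallest adjusted p of these, stood at 57.02, 46.4 and 48.8 CPM for controls 1 to 3, against 72.6, 71.1 and 73.8 CPM for knockdown libraries 1 to 3 (log2 change 0.52 ± 0.09, adjusted p = 0.00108). The readthrough gene PPAN-P2RY11 covers 56.0% of the PPAN exon bases, at a mean of 3.21 CPM against 61.3 CPM for PPAN. P2RY11, on the same strand, covers 3.8% at a mean of 11.5 CPM and rose (log2 change 0.38, adjusted p = 0.0339). The level of PPAN is uncertain where reads were shared. RPF2 and RRS1 work as a pair that docks the 5S ribonucleoprotein onto the particle. RPF2 stood at 71.5, 58.3 and 48.2 CPM for controls 1 to 3, against 83.1, 97.8 and 85.5 CPM for knockdown libraries 1 to 3 (log2 change 0.59 ± 0.12, adjusted p = 0.00268), and RRS1 at 34.4, 25.1 and 22.0 CPM for controls 1 to 3, against 52.4, 54.8 and 50.9 CPM for knockdown libraries 1 to 3 (log2 change 0.96 ± 0.13, adjusted p = 0.000209). The RPF2 to RRS1 ratio of CPM was 2.19 ± 0.121 in controls and 1.68 ± 0.1001 in knockdown libraries (SD, n = 3 each), without overlap, and was not tested. Such ratios also did not overlap for PES1 to BOP1, WDR74 to NVL and NMD3 to LSG1. They did overlap for WDR12 to BOP1, RRP1 to RRP1B, GNL3 to GNL3L and NLE1 to MDN1. How often ratios of other gene pairs separate the groups was not counted, so these ratios are a description. The 5S-binding ribosomal proteins that RPF2 and RRS1 receive, RPL5 and RPL11, had log2 changes of 0.06 and 0.20 and did not pass the test (adjusted p = 0.669 and 0.228).

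The NOC proteins, which form paired complexes on early and intermediate particles, rose in all 3 members. NOC3L stood at 42.1, 33.6 and 30.5 CPM for controls 1 to 3, against 60.2, 65.8 and 64.0 CPM for knockdown libraries 1 to 3 (log2 change 0.84 ± 0.11, adjusted p = 0.000158), clear of the controls. CEBPZ, the human counterpart of yeast Noc1, rose 1.53-fold and NOC2L 1.27-fold (adjusted p = 0.00106 and 0.00575). SAMD11, on the other strand, covers 6.82% of the NOC2L exon bases and rose as well (log2 change 0.42, adjusted p = 0.00256).

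All 7 DEAD-box RNA helicases of the list, enzymes that open RNA duplexes and remove proteins or small nucleolar RNAs from the precursor, rose. DDX18 stood at 161, 126 and 111 CPM for controls 1 to 3, against 223, 223 and 232 CPM for knockdown libraries 1 to 3, with knockdown libraries close together and controls spread (log2 change 0.77 ± 0.11, adjusted p = 0.000357). The other helicases had smaller log2 changes, from 0.27 for DDX54 to 0.49 for DDX56, with DDX27, DDX55, DDX24 and DDX51 between them. In each of the 7 all knockdown libraries were above all controls. The call of DDX54 (adjusted p = 0.0229) was lost without control 2 (0.135), control 3 (0.0777) or knockdown library 1 (0.0799), and with upper-quartile scaling (0.0587). EIF2B1, on the other strand of DDX55, and ZNFX1, on that of DDX27, share 9.38% and 3.72% of the exon bases and also rose (adjusted p = 0.00872 and 0.00264). In the plot of log2 changes DDX18 lies above the nucleolar median of 0.56, and the other helicases lie below it.

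**Figure D2:**
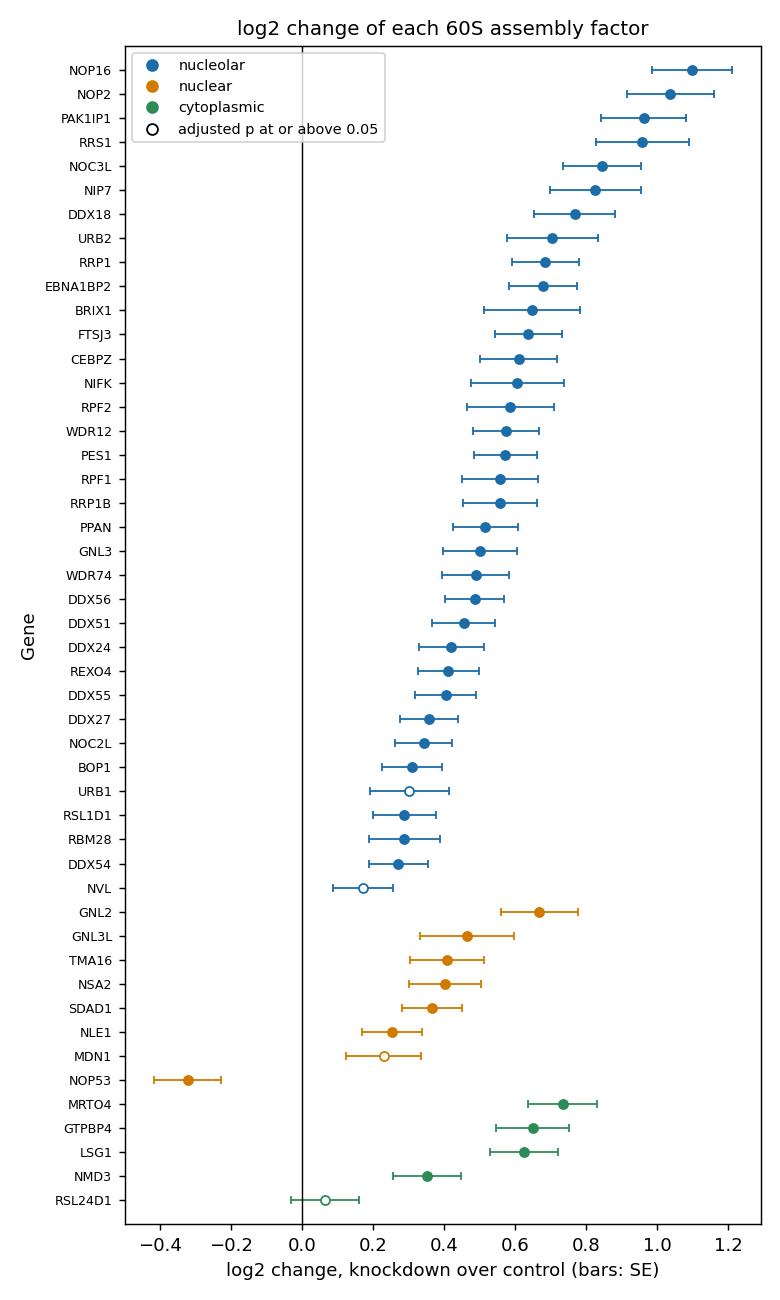
Points are the log2 change of each of the 48 genes (knockdown over control, 3 libraries each), with bars for its SE, ordered within the nucleolar, nuclear and cytoplasmic steps. Filled points passed an adjusted p of 0.05; the open ones are URB1, NVL, MDN1 and RSL24D1, and NOP53 is the only point below 0.

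Neither of the AAA ATPases that pull factors off the particle, NVL and MDN1, passed the test. A substrate of each did, though the log2 changes of MDN1 and its substrate NLE1 were close (0.23 and 0.25). NVL, which removes WDR74 as the particle leaves the nucleolus, stood at 50.2, 45.8 and 45.7 CPM for controls 1 to 3, against 53.3, 51.4 and 54.8 CPM for knockdown libraries 1 to 3. Its groups did not overlap, the gap between them was small, and it did not pass the test (log2 change 0.17 ± 0.08, adjusted p = 0.136). Its substrate WDR74 rose, from 67.6 ± 6.62 to 94.6 ± 7.74 CPM, with 75.2, 64.2 and 63.4 CPM for controls 1 to 3, against 87.2, 103 and 94.0 CPM for knockdown libraries 1 to 3 (log2 change 0.49 ± 0.09, adjusted p = 0.00180). MDN1, a very large ATPase of the nucleoplasm, stood at 204, 187 and 217 CPM for controls 1 to 3, against 262, 198 and 253 CPM for knockdown libraries 1 to 3, where knockdown library 2 lay among the controls (log2 change 0.23 ± 0.11, adjusted p = 0.109). MDN1 passed without knockdown library 2 (adjusted p = 0.00927) and with a correction for mRNA length (0.00117). Its substrate NLE1, a WD-repeat protein removed as the particle matures, stood at 90.7, 81.5 and 89.6 CPM for controls 1 to 3, against 97.4, 110.3 and 104 CPM for knockdown libraries 1 to 3 and had the smallest called rise of the list (log2 change 0.25 ± 0.08, adjusted p = 0.0342). The NLE1 call was lost with upper-quartile scaling (adjusted p = 0.0910), with no filter on low counts (0.0693) and in 4 of the 6 omissions of a library, which were control 2 (0.186), control 3 (0.0656), knockdown library 2 (0.0831) and knockdown library 3 (0.0912). The ratio of NLE1 to MDN1 CPM was 0.431 ± 0.0162 in controls and 0.446 ± 0.0976 in knockdown libraries (SD, n = 3 each), with overlap. That of WDR74 to NVL was 1.43 ± 0.0614 and 1.78 ± 0.189, without overlap, and neither ratio was tested.

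The GTPases GNL2, GNL3, GNL3L and LSG1 belong to a family whose GTP-binding motifs are in a permuted order, and all 4 rose. GNL2, which acts on nucleoplasmic particles, stood at 117, 104 and 87.5 CPM for controls 1 to 3, against 152, 181 and 156 CPM for knockdown libraries 1 to 3 (log2 change 0.67 ± 0.11, adjusted p = 0.000593). GNL3 (nucleostemin), a nucleolar protein known from stem and tumour cells, stood at 218, 202 and 167 CPM for controls 1 to 3, against 254, 301 and 273 CPM for knockdown libraries 1 to 3 (log2 change 0.50 ± 0.10, adjusted p = 0.00270). Its paralog GNL3L stood at 64.6, 48.7 and 53.2 CPM for controls 1 to 3, against 82.3, 60.5 and 87.4 CPM for knockdown libraries 1 to 3, with knockdown library 2 below control 1, so that the groups overlapped (log2 change 0.46 ± 0.13, adjusted p = 0.0160). The GNL3L call was lost without control 2 (adjusted p = 0.0887), control 3 (0.0520), knockdown library 1 (0.0558) or knockdown library 3 (0.105).

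Among the other nuclear factors SDAD1, NSA2 and TMA16 rose and NOP53 fell. SDAD1, a late nuclear factor, stood at 86.8, 84.1 and 75.9 CPM for controls 1 to 3, against 102, 108.7 and 107 CPM for knockdown libraries 1 to 3 (log2 change 0.37 ± 0.08, adjusted p = 0.00467). TMA16 and NSA2 rose 1.33-fold and 1.32-fold (adjusted p = 0.00894 and 0.00847). Exons of FAM169A on the other strand cover 51.2% of the NSA2 exon bases, and FAM169A had a log2 change of -0.20 (adjusted p = 0.230). NOP53 (chromosome 19, 47745522 to 47757058), which brings the RNA exosome to the particle for trimming of ribosomal RNA, stood at 262, 287 and 284 CPM for controls 1 to 3, against 218, 251 and 198 CPM for knockdown libraries 1 to 3. Its knockdown libraries were all below its controls, a fall of 1.25-fold (log2 change -0.32 ± 0.09, adjusted p = 0.0190). The NOP53 call was lost without control 2 (adjusted p = 0.0834), control 3 (0.0592), knockdown library 1 (0.0704) or knockdown library 3 (0.0940), while its log2 change stayed between -0.42 and -0.25 over all 6 omissions.

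Of the factors that leave the particle in the cytoplasm, 4 of 5 rose. MRTO4, which holds the place of the stalk protein RPLP0, stood at 115, 94.4 and 91.3 CPM for controls 1 to 3, against 160.0, 177 and 162 CPM for knockdown libraries 1 to 3 (log2 change 0.73 ± 0.10, adjusted p = 0.000180). GTPBP4, a GTPase that joins in the nucleolus and travels out, rose 1.57-fold from 147 ± 23.5 to 231 ± 2.89 CPM (adjusted p = 0.000513). RSL24D1, which holds the place of RPL24, stood at 184, 193 and 174 CPM for controls 1 to 3, against 172, 219 and 184 CPM for knockdown libraries 1 to 3. Only knockdown library 2 was above the controls, the groups overlapped, and RSL24D1 did not pass the test (log2 change 0.06 ± 0.10, adjusted p = 0.642). NMD3, the adaptor that links the particle to the exportin XPO1, stood at 71.1, 69.2 and 61.6 CPM for controls 1 to 3, against 76.0, 87.6 and 93.3 CPM for knockdown libraries 1 to 3 (log2 change 0.35 ± 0.10, adjusted p = 0.0118), and its call was lost without control 3 (adjusted p = 0.0606) or knockdown library 3 (0.0737). LSG1, the cytoplasmic GTPase that releases NMD3, stood at 45.1, 38.1 and 36.7 CPM for controls 1 to 3, against 60.7, 58.8 and 65.1 CPM for knockdown libraries 1 to 3 (log2 change 0.62 ± 0.10, adjusted p = 0.000452), clear of the controls. The proteins whose places are held did not pass the test: RPLP0 and RPL24 had log2 changes of -0.06 and 0.22 (adjusted p = 0.673 and 0.138).

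**Figure D3:**
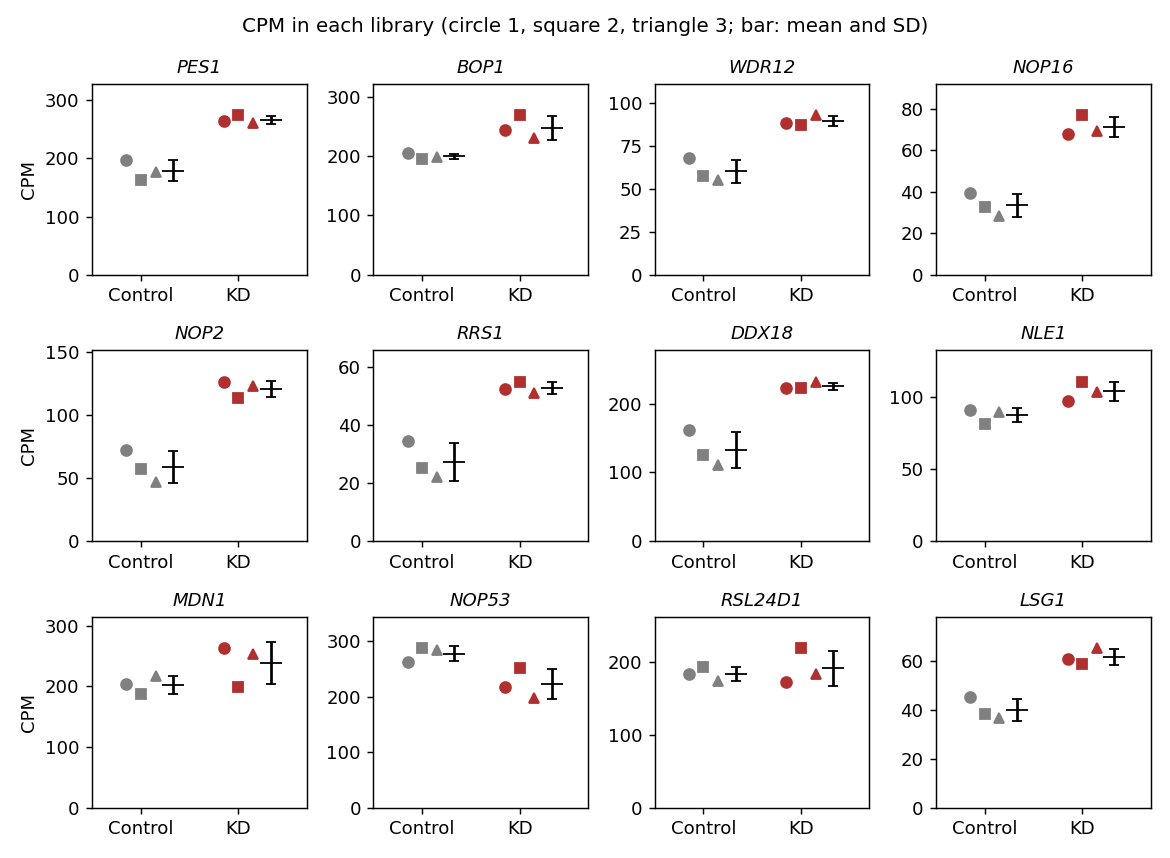
CPM (axis from 0) in each control (grey) and knockdown library (red) for 12 of the genes, with the library number given by the marker shape and the mean and SD (n = 3) beside the points. PES1, WDR12, NOP16, NOP2, RRS1, DDX18 and LSG1 are far above their controls, MDN1 and RSL24D1 overlap them, and NOP53 is below.

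By step, 33 of 35 nucleolar, 6 of 8 nuclear and 4 of 5 cytoplasmic factors rose, and 1 nuclear factor fell. The median log2 change was 0.56 for nucleolar, 0.38 for nuclear and 0.62 for cytoplasmic factors, with ranges of 0.17 to 1.10, -0.32 to 0.67 and 0.06 to 0.73 that overlap widely. All 4 log2 changes above 0.9 (NOP16, NOP2, PAK1IP1 and RRS1) were in nucleolar factors. With GTPBP4, RSL24D1 and MRTO4 counted as nucleolar, because they join there, 35 of 38 nucleolar factors rose (median 0.57), and NMD3 and LSG1, which both rose, were the only cytoplasmic ones (median 0.49). The difference between steps was not tested.

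A further 35 genes of the same path, listed by step and also chosen with earlier results of these data known, were read from the same fit. Of these 26 rose, 1 fell and 8 did not pass the test (median 0.46). By step, 12 of 13 nucleolar (median 0.64), 7 of 9 nuclear (0.36) and 7 of 13 cytoplasmic or export genes (0.35) rose. MYBBP1A, a nucleolar MYB-binding protein, and SURF6, a nucleolar matrix protein, rose 1.57-fold and 1.58-fold (adjusted p = 0.000166 and 0.000201). TEX10, of the complex that processes the spacer between the large-subunit RNAs, and BCCIP, also known as a partner of BRCA2, rose 1.501-fold and 1.57-fold (adjusted p = 0.000925 and 0.00145). Among cytoplasmic genes PA2G4, which binds at the exit tunnel, and AIRIM, a partner of the releasing ATPase, rose 1.48-fold and 1.47-fold (adjusted p = 0.000809 and 0.000960). AFG2A, an ATPase that strips RSL24D1 and its companions in the cytoplasm, was the 1 gene that fell, with 56.1, 67.2 and 61.0 CPM for controls 1 to 3, against 43.1, 46.7 and 50.7 CPM for knockdown libraries 1 to 3, without overlap (log2 change -0.39 ± 0.10, adjusted p = 0.00745). AFG2B, its partner ATPase, rose 1.57-fold (adjusted p = 0.00143). The AFG2A call was lost without control 2 (log2 change -0.32, adjusted p = 0.0569). XPO1, EIF6, EFL1, ZNF622 and DNAJC21, also of the export and cytoplasmic steps, did not pass the test, with log2 changes of 0.16, 0.25, 0.06, 0.29 and 0.23. All of these but EFL1 passed with a correction for mRNA length, at adjusted p of 0.0183, 0.0354, 0.0433 and 0.0387. The rises called for NPM1, SENP3, LAS1L and CINP were lost with upper-quartile scaling, without control 2 and without control 3. Those of NPM1 and SENP3 were also lost without knockdown library 2 or 3. That of CINP was also lost without knockdown library 1 or 2, and that of LAS1L without knockdown library 1. The SBDS call was lost without control 2 or 3, that of DUSP12 without control 3 or knockdown library 2, and that of HEATR3 without knockdown library 3. With both lists joined, the median was 0.57 over 48 nucleolar, 0.37 over 17 nuclear and 0.36 over 18 cytoplasmic genes.

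The ribosomal proteins that these factors put together were a contrast in the same libraries. Of 47 genes for large-subunit ribosomal proteins, 0 passed edgeR's test, where 4 had a p under 0.05 before adjustment. By DESeq2 and by limma-voom 0 passed as well, and 8 and 3 had such a p. Their median log2 change was 0.12 (from -0.23 for RPL12 to 0.24 for RPL23), so the whole range lay below the lower quartile of the assembly factors, 0.36. Without knockdown library 2 the median was -0.04 and 4 were called lower, RPL3, RPL10, RPL12 and RPL13A, with log2 changes of -0.28, -0.24, -0.36 and -0.37. With no filter on low counts RPL12 alone was called (lower), and with the correction for mRNA length RPL3, RPL12 and RPL13A were called lower. The difference between the lists was not tested. The plot of changes by step sets these genes beside the assembly factors.

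**Figure D4:**
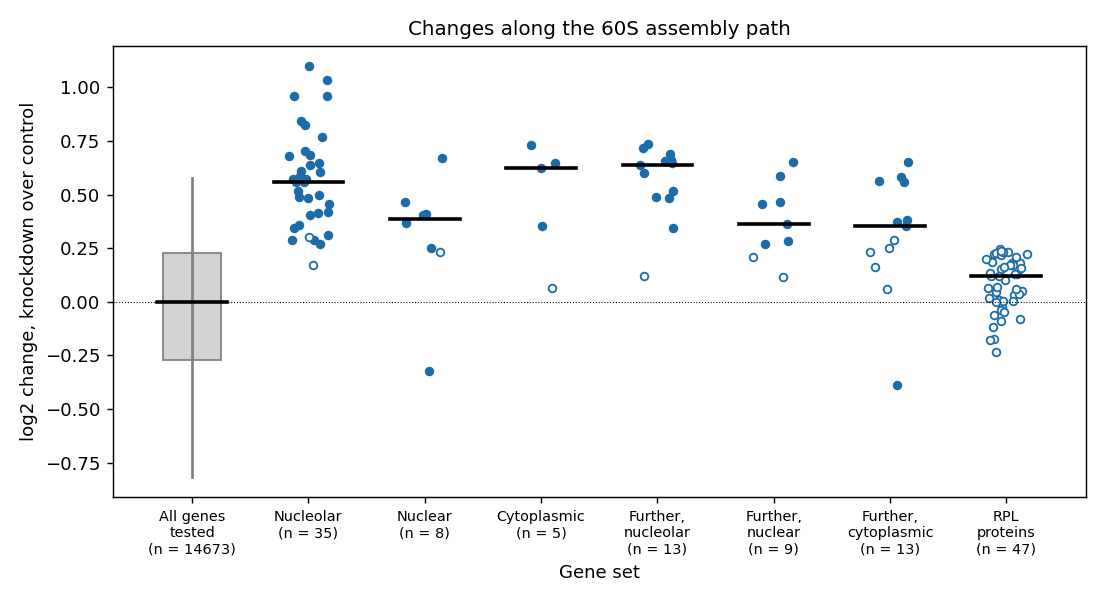
log2 change (knockdown over control) of single genes by set, with filled points for an adjusted p under 0.05 and black lines for medians; the box for all 14673 genes tested spans the quartiles and its line the 5th to 95th percentile. The nucleolar medians are 0.56 and 0.64, and the 47 ribosomal protein genes (RPL proteins) have a median of 0.12 with no filled point.

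Knockdown library 2 differed from the other knockdown libraries with the length of the mRNA. Across the 48 genes the log2 CPM of knockdown library 2 minus the mean of libraries 1 and 3 had a Spearman correlation of -0.55 with annotated mRNA length, and -0.67 across the 9294 tested genes with a control mean of at least 10 CPM. Each control set against the other controls had correlations with length of -0.18, -0.29 and 0.31 for controls 1 to 3 across the 48 genes. Genes of 1 library are not independent, so these correlations are a description. Of the 6 longest mRNAs in the list, 5 were lowest in knockdown library 2 within their group (MDN1, RBM28, URB1, WDR12 and URB2, not DDX24), against 8 of the other 42. MDN1 and URB1 had differences of -0.38 and -0.41, but WDR12 had only -0.05. Among shorter but still long mRNAs, RRP1B (5090 bases) had -0.20, whereas RSL1D1 (5483 bases) and NSA2 (4594 bases) had 0.15 and 0.27. GNL3L had -0.49 at an annotated length of only 2357 bases, and RSL24D1 had 0.30 at 2015 bases. With a correction for length within each library, 45 genes rose, NOP53 fell, and NVL and RSL24D1 did not pass. Without knockdown library 2, 44 rose.

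**Figure D5:**
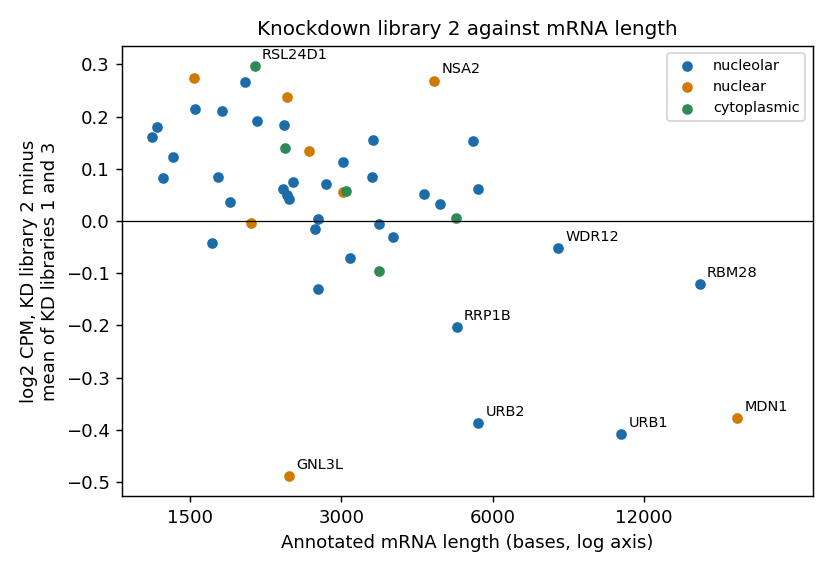
For each of the 48 genes, log2 CPM in knockdown library 2 minus the mean of knockdown libraries 1 and 3 is plotted against annotated mRNA length (log axis), coloured by step. MDN1 at -0.38 and URB1 at -0.41 are long and low, GNL3L at -0.49 is low though short, and RSL24D1 at 0.30 is the highest point.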

How the data were processed

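Per the labels, RNA was extracted with the miRNeasy Micro kit and sequenced as TruSeq Stranded mRNA libraries. Per the submitters' processing notes, the tools were Trim Galore 0.6.4, STAR 2.7.9a and RSEM, with genome build GRCh38.p13. For the annotation and strand setting, the sources used here give nothing. The authors deposited 1 file of whole-number counts per gene and library, read here as RSEM estimates rounded before deposit. Of 60708 gene identifiers, 44 were copies in the Y pseudoautosomal region and were merged, leaving 60664 genes.

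Genes with too few counts were dropped with filterByExpr, which left 14673. Libraries were scaled by TMM, groups were compared by edgeR 4.0.16 quasi-likelihood tests (R 4.3.3) in a fit of 3 control and 3 knockdown libraries, and p-values were adjusted over all tested genes. The SE is the log2 change over the square root of the F statistic, an approximation. CPM use TMM-scaled library totals. Counts simulated for 14673 genes with known changes gave back 74 of 100 genes at 1.5-fold and 87 of 100 at 2-fold, with 8 false calls among 169. Only these genes were changed in the simulation, whereas 31.7% of tested genes were called in the data. No shift with mRNA length was simulated, so these rates need not hold for the data. Replicates of a group differed by more than counting noise, with chi-square per degree of freedom from 2.73 to 16.5.

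Genes were matched by Ensembl identifier to symbols (60652 of 60664) and to GENCODE 29 coordinates on GRCh38 (58396 of 60664); mRNA lengths are those of 1 principal transcript per gene. AFG2A, AFG2B and AIRIM were found under older symbols. Promoters are from RefSeq. Values in every library are given for the factor with the smallest adjusted p in each role, those that fell or did not pass, the largest and smallest called changes, the PeBoW complex and named pairs; of the further genes, the 2 with the smallest adjusted p per step and any that fell are named. Other names were chosen after their values were seen. The 48 genes and the other lists were chosen with earlier results of these data known. Alternatives were other scalings and low-count filters, a replicate block, DESeq2 1.42.0, limma-voom (limma 3.58.1), a stricter threshold, leaving out each library, moving the shuttling factors to the nucleolar step and, chosen after seeing the data, a correction for mRNA length over the genes with a length (86.1% of those tested). Some single-gene results are not reported here.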

Additional observations from a re-analysis of the deposited data

How the results depend on the processing

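Of the 48 assembly factors, 43 rose with RLE scaling, no low-count filter, a minimum of 1 CPM in 3 libraries, DESeq2 and limma-voom, 39 with upper-quartile scaling, 45 with the mRNA length correction and 36 at an adjusted p under 0.01, where 0 fell. Leaving out each library gave 37 to 44 that rose and 0 to 1 that fell. RSL24D1, which did not pass in any setting, had log2 changes from -0.041 (without knockdown library 2, adjusted p = 0.736) to 0.14 (without knockdown library 1) over the omissions. Counting the shuttling factors as nucleolar left 2 cytoplasmic factors that rose. Among the 35 further 60S factors, 20 (without control 3) to 28 (without control 1) rose and 0 to 1 fell over the single omissions. Of these factors 22 rose with upper-quartile scaling, 31 with the length correction and 20 at an adjusted p under 0.01. The 47 ribosomal protein genes went from 0 calls to 1 with no low-count filter, 4 with the length correction and 0 to 4 over the omissions. Over all genes, an adjusted p under 0.01 left 2459 calls (1190 higher and 1269 lower), and omissions gave 2704 to 5114 (1264 to 2604 higher and 1440 to 2510 lower), lowest without control 2. DESeq2 called 3907 and the length correction 5408 (3133 higher and 2275 lower).

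With a replicate block 44 of the 48 factors rose, URB1 being gained, and 4742 genes were called (2357 higher and 2385 lower). Deviations of same-numbered libraries correlated at 0.031, 0.096 and -0.033, so the numbers were not taken to pair libraries. Precision is limited by 3 libraries a group and by the 7765826 counts of knockdown library 1. The cause of each change with a setting was not tested.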
